A study of Mus musculus with 2031 samples.

Results

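AST1 and AST2 are names that the study gave to clusters of astrocytes, and the comparison described here is between the AST1 and the AST2 cells of mouse cortex. Members were the cells of the cortical suspensions 1C and 2C that the study's deposited list of cell types assigned to AST1 or to AST2. They were 635 cells of 1062 cortical cells, and of 2030 cells with a file in the whole series. AST1 held 57 cells of suspension 1C (10.5% of the cells of that suspension) and 55 of 2C (10.6%), and AST2 held 44.4% and 54.3% of the cells. AST1 was thus the smaller group in both suspensions.

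Cells came from C57BL/6J mice at postnatal day 56, and each cortical suspension was made from 1 animal, the animals being littermates. Cells were sorted 1 per well on the astrocyte surface protein ATP1B2 (ACSA-2), without the oligodendrocyte antigen O1 and without the dead-cell dye 7-AAD, and sequenced by Smart-seq2, a full-length method without molecular identifiers. The question was which genes differ between these astrocyte subtypes within cortex. Read counts per gene were summed over the cells of each subtype in each suspension, so that a subtype was represented by 2 sums, and AST1 was compared with AST2 within the animal. With 2 animals, the p-values measure how well the 2 animals repeat each other. The spread behind them was estimated with the sums of a further cortical subtype, AST3, and in part with information shared across genes. The subtypes were found by clustering these same counts, so that a difference between them is no independent evidence that they are distinct.

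Astrocytes are glial cells that wrap synapses, clear glutamate and potassium from the extracellular space, supply glutamine and lactate to neurons and secrete lipoproteins. Their endfeet cover blood vessels and, under the pia, form the glia limitans, the outer border of the brain. Astrocytes of that border and of white matter are known for high GFAP, the intermediate filament protein most used as an astrocyte marker, whereas most astrocytes of the cortical grey matter hold little of it.

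The 4 sums held 86705123 (AST1, 1C), 77349813 (AST1, 2C), 353257643 (AST2, 1C) and 418823674 (AST2, 2C) gene counts, and a cortical AST1 or AST2 cell had 609200 to 3238215 gene counts, with a median of 1439465. Levels are given in CPM, the usual unit of counts scaled to library size. The 10 astrocyte markers together had means over cells of 40289 to 44572 CPM in the 4 groups of cells. The lists of oligodendrocyte, precursor, microglia, endothelial, mural, neuronal, meningeal and ependymal markers had means between 0.122 and 188 CPM, and Mog, Mag, Cldn11 and Opalin of the oligodendrocyte list were at 0 in both AST1 sums. The astrocyte markers were thus high, and the markers of other cells low, in both subtypes. AST1 cells held slightly fewer genes than AST2 cells, with medians of 2089 against 2155 in 1C and 1801 against 2072 in 2C. A smaller share of their reads fell outside exons, with medians of 10.99% against 14.4% in 1C and 10.6% against 13.2% in 2C. The part of these values in the results below was not tested.

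Of 6144 genes tested, 25 differed at an adjusted p under 0.05 (quasi-likelihood F test of edgeR, adjusted by Benjamini-Hochberg over all of them), which is 0.407%. Of these, 18 were higher in AST1 (0.293% of the genes tested) and 7 were higher in AST2 (0.114%). Cst3, Apoe and Clu, which encode secreted proteins, had the lowest adjusted p among the former, and Kirrel2, an adhesion gene, among the latter. At an unadjusted p under 0.05 there were 816 genes (13.3%), of which the part higher in AST1 was 5.75% of the genes tested and the part higher in AST2 was 7.54%. All 25 called genes had the same direction in both suspensions, which the paired test favours, and so did 56.2% of the genes tested. The median log2 difference over the genes tested was -0.01. The calls depended on which low genes were tested: with edgeR's own looser filter (16957 genes) and with no filter (22046 genes) none of the 25 was called and all 25 kept their direction, with 1385 and 1285 genes at an unadjusted p under 0.05. DESeq2 called 11 of the 25, namely Cst3, Apoe, Agt, Cd9, Nnat, Naaa, Kirrel2, Eogt, Rab31, Pygm and Zfp385a, and did not call the other 14, among them Clu, Sparcl1, Cd81, Cpe, Rcn2, Sat1 and Slc38a3. Without the pairing by suspension, the calls of Sat1, Eogt, Slc38a3, Mmd2 and Tspan7 were lost.

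**Figure D1:**
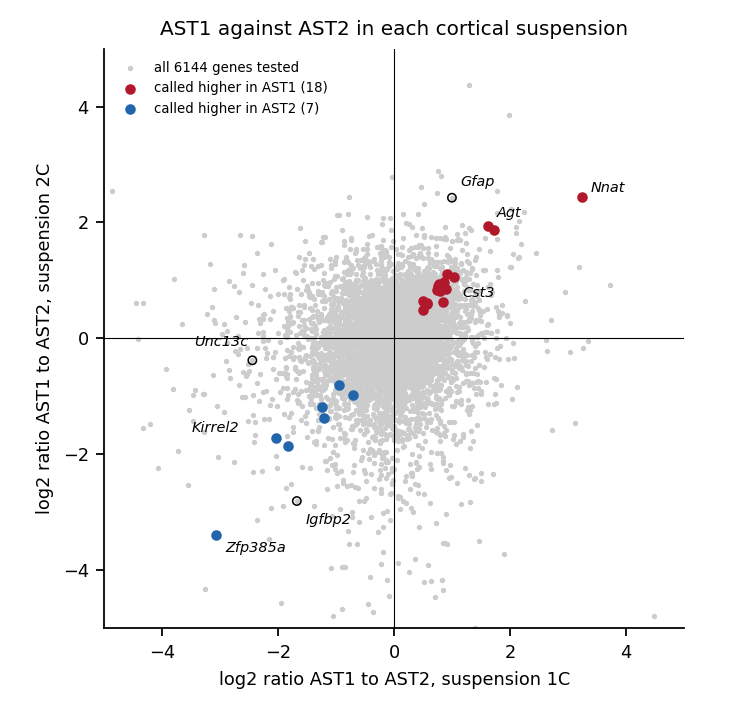
Each point is a gene, with the log2 ratio of AST1 to AST2 in suspension 1C on the horizontal axis and in 2C on the vertical axis. Red points are the 18 genes called higher in AST1, blue points the 7 called higher in AST2, open circles are named genes that did not pass the test, and 32 genes lie outside the axes. All 25 called genes sit in the lower left or the upper right quadrant, as a test paired over these suspensions favours.

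The median share of AST1 cells with a count was 99.6% over the 18 genes higher in AST1, and some of them, such as Agt, Nnat and Cd9, were found in far fewer cells. Together they made up 135522 CPM in AST1 of 1C and 151696 CPM in AST1 of 2C, and 78595 CPM and 82744 CPM in AST2. The 7 genes higher in AST2 were found in a median of 51.6% of AST2 cells. Their summed level was 4109 and 3554 CPM in AST1 and 7666 and 7324 CPM in AST2.

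Cst3 encodes cystatin C, a secreted inhibitor of cysteine proteases (chromosome 2, 148871722 to 148875692, minus strand, GRCm38). Its level was 18342 CPM in AST1 of 1C and 18775 CPM in AST1 of 2C, against 9033 and 8982 CPM in AST2. Both AST1 sums lay above both AST2 sums, as a test of these sums favours. The log2 fold change was 1.04 ± 0.050 (SE), with the lowest adjusted p of the comparison, 0.00431 (edgeR). All cells of both subtypes held Cst3 counts, so that the difference was one of level. In 90.2% of the pairs of an AST1 and an AST2 cell of 1C, the AST1 cell had the higher CPM, with ties shared equally, and the share was 85.7% in 2C. AST1 was higher on all 16 plates.

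Apoe encodes the main apolipoprotein that astrocytes secrete (chromosome 7, 19696109 to 19699188, minus strand). It stood at 41156 and 47658 CPM in AST1 and at 22777 and 24289 CPM in AST2. The groups did not overlap, as the test favours, at 0.91 ± 0.054 (SE) on the log2 scale and an adjusted p of 0.00885 (edgeR). The AST1 cell was the higher one in 88.8% of cell pairs in 1C and 89.8% in 2C. Clu encodes clusterin, an extracellular chaperone carried on lipoproteins (chromosome 14, 65968483 to 65981547, plus strand). It stood at 18897 and 22278 CPM in AST1 against 11244 and 11902 CPM in AST2, a log2 fold change of 0.83 ± 0.058 (SE) with an adjusted p of 0.0154. Of the 11 genes in the list of lipoproteins and lipid transport, 7 were tested. All 7 had positive values, with a median log2 difference of 0.51 against -0.01 over all genes tested, and Apoe and Clu alone were called. Of all genes tested, 2989 of 6144 had positive values and 0.293% were called higher in AST1. The spread of the other members was wide: Abca1, a cholesterol exporter, had 99.9 and 259.4 CPM in AST1 and 145.4 and 88.6 CPM in AST2, overlapping groups.

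The genes with the largest folds were found in part of the cells. Nnat encodes neuronatin, a small proteolipid of the endoplasmic reticulum from an imprinted gene (chromosome 2, 157560078 to 157562522, plus strand). Its level was 322.7 and 246.9 CPM in AST1 and 34.4 and 45.7 CPM in AST2. It was 7.002-fold higher in AST1, at a log2 fold change of 2.81 ± 0.30 (SE) and an adjusted p of 0.0391. After each cell had been thinned to 500000 gene counts, Nnat had a count in 52.6% and 52.7% of AST1 cells, and in 18.3% and 21.6% of AST2 cells.

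The tetraspanins Cd9 and Cd81 are membrane organisers that partner with each other. Cd9 (chromosome 6, 125460266 to 125494791, minus strand) had 363.6 and 426.1 CPM in AST1 and 109.8 and 116.5 CPM in AST2. Its log2 fold change was 1.80 ± 0.18 (SE), with an adjusted p of 0.0349, and it was seen in 56.1% and 58.2% of AST1 cells against 26.3% and 25.1% of AST2 cells. Cd81 (chromosome 7, 143052739 to 143067934, plus strand) had 4773 and 5105 CPM in AST1 and 2810 and 2770 CPM in AST2, a log2 fold change of 0.82 ± 0.068 (SE) with an adjusted p of 0.0235. Tspan7, another member of the family, was higher in AST1 by 0.57 on the log2 scale with an adjusted p of 0.0391.

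Agt encodes angiotensinogen, the precursor of angiotensin peptides, which in brain is made by astrocytes (chromosome 8, 124556534 to 124569706, minus strand). It had 535.6 and 503.3 CPM in AST1 and 174.2 and 130.9 CPM in AST2. The log2 fold change was 1.78 ± 0.165 (SE) and the adjusted p 0.0320. It was found in 40.4% and 43.6% of thinned AST1 cells and in 24.2% and 20.1% of AST2 cells, and the AST1 cell was the higher one in only 59.6% and 62.4% of cell pairs. The difference between the sums thus came with strongly overlapping cells. Of the Agt CPM summed over AST1 cells, 1 cell gave 23.99% in 1C and 25.8% in 2C. In AST2 the highest cell gave 7.14% and 4.94%. The study itself uses Agt as a marker, high in AST1 and low or absent in AST2, a choice made on these cells.

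Cpe, the carboxypeptidase that trims peptide hormones (chromosome 8, 64592542 to 64693054, minus strand), had 6979 and 8429 CPM in AST1 and 4095 and 4392 CPM in AST2, which was 0.86 ± 0.073 (SE) on the log2 scale at an adjusted p of 0.0243. Rcn2, a calcium-binding protein of the endoplasmic reticulum (chromosome 9, 56041845 to 56061882, plus strand), had 1439 and 1299.6 CPM in AST1 against 774.2 and 722.2 CPM in AST2, which was 0.87 ± 0.098 (SE) on the log2 scale at an adjusted p of 0.0391. Naaa, a lysosomal amidase of lipid amides such as palmitoylethanolamide (chromosome 5, 92257659 to 92278170, minus strand), had 975.1 and 957.8 CPM in AST1 and 516.6 and 442.8 CPM in AST2, which was 1.01 ± 0.12 (SE) on the log2 scale at an adjusted p of 0.0391. In these 3 genes both AST1 sums lay above both AST2 sums, as a test of these sums favours. The remaining genes called higher in AST1 had log2 fold changes between 0.50 and 0.82. They were Sparcl1 (hevin, a secreted promoter of excitatory synapses), Itm2b, Gpm6b, Ntrk2 (the BDNF receptor TrkB), Mmd2, Pla2g7 and CT010467.1. CT010467.1 overlaps an 18S ribosomal RNA pseudogene, so that its reads may come from near-identical ribosomal copies and its value is uncertain.

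**Figure D2:**
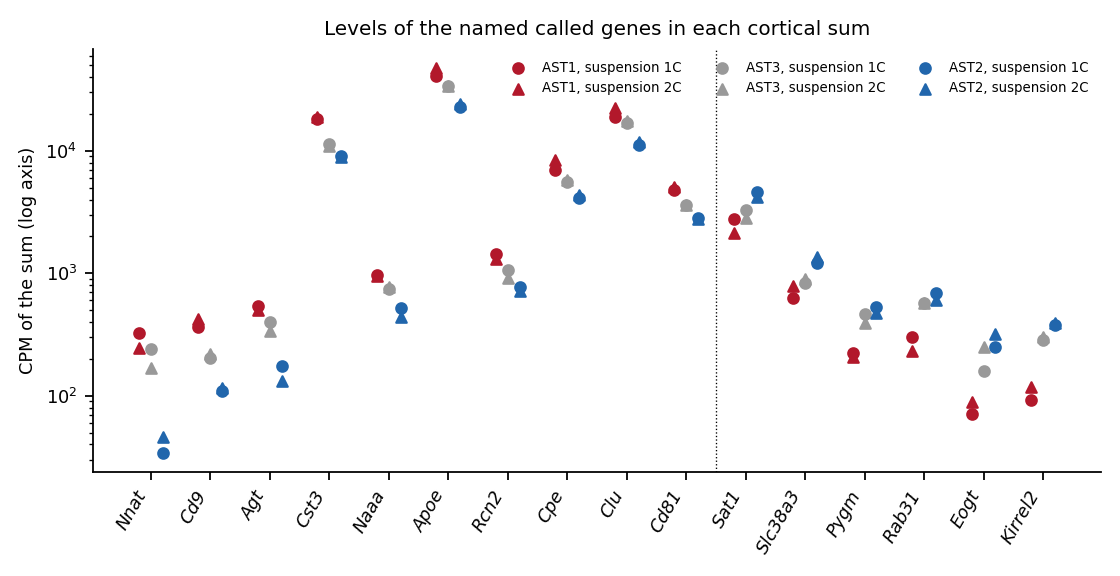
The vertical axis gives the CPM of each sum on a log axis for the named called genes, those higher in AST1 left of the dotted line and those higher in AST2 right of it. Circles are suspension 1C and triangles 2C, with AST1 in red, AST3 in grey and AST2 in blue. In each of these genes the red and the blue symbols do not overlap, which follows largely from the choice of genes by a test of these sums.

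Sat1 encodes the spermidine/spermine acetyltransferase that starts polyamine breakdown (X chromosome, 155213132 to 155216449, minus strand). Its level was 2790.3 and 2119 CPM in AST1 and 4581 and 4159 CPM in AST2. It was higher in AST2, at a log2 difference of -0.84 ± 0.086 (SE, AST1 minus AST2) and an adjusted p of 0.0365. Slc38a3 encodes the transporter SNAT3, through which astrocytes release glutamine (chromosome 9, 107650634 to 107669530, minus strand). It had 632.6 and 785 CPM in AST1 and 1222 and 1366 CPM in AST2, a log2 difference of -0.87 ± 0.10 (SE) with an adjusted p of 0.0391. It was called in 5 of 11 alternatives, and its call was also lost after thinning and without cells of few reads outside exons. Pygm, the muscle-type glycogen phosphorylase, which astrocytes also make (chromosome 19, 6384399 to 6398459, plus strand), had 223.3 and 207.7 CPM in AST1 and 526.9 and 471.3 CPM in AST2. Its log2 difference was -1.21 ± 0.15 (SE) with an adjusted p of 0.0391. It was seen in 31.6% and 21.8% of thinned AST1 cells and in 50.4% and 50.5% of AST2 cells.

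Kirrel2 encodes an adhesion protein of the immunoglobulin superfamily, related to nephrin (chromosome 7, 30447534 to 30457690, minus strand). It had 92.1 and 118.6 CPM in AST1 and 380.0 and 389.5 CPM in AST2. The log2 difference was -1.88 ± 0.18 (SE), with an adjusted p of 0.0349, and 26.3% and 18.2% of thinned AST1 cells held it against 53.3% and 48.4% of AST2 cells. Eogt, an enzyme of the endoplasmic reticulum that puts N-acetylglucosamine on EGF repeats (chromosome 6, 97110024 to 97149182, minus strand), had 70.4 and 89.3 CPM in AST1 and 250.6 and 321.8 CPM in AST2, a log2 difference of -1.84 ± 0.21 (SE) with an adjusted p of 0.0391. Rab31, a small GTPase of membrane traffic (chromosome 17, 65651729 to 65772752, minus strand), had 299.4 and 233.5 CPM in AST1 and 695.8 and 603.2 CPM in AST2, a log2 difference of -1.29 ± 0.15 (SE) with an adjusted p of 0.0391. These 3 genes had non-overlapping groups, as a test of these sums favours. Zfp385a, a zinc finger gene, was called at very low values of 1.125 and 1.22 CPM in AST1 and 9.51 and 12.8 CPM in AST2, and 1 cell gave 60.04% of its AST1 level in 2C.

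Genes next to the threshold are given as values only, and each of the 4 was called in several alternatives. Igfbp2, which encodes a carrier of insulin-like growth factors, had 210.8 and 122.3 CPM in AST1 and 675.5 and 854 CPM in AST2, with an adjusted p of 0.0570, and it was called in 5 of 11 alternatives, with adjusted p from 3.85e-05 (DESeq2) to 0.660. It separated the cells more widely than any called gene higher in AST2 that is given here by shares of cells: 19.3% and 20% of thinned AST1 cells held it against 72.1% and 79.2% of AST2 cells. The study cites Igfbp2, together with Sparc, as a marker reported earlier for cortical astrocytes. Sparc had the opposite direction, with higher values in AST1. Slco1c1, the thyroxine transporter, had a log2 difference of -0.64 with an adjusted p of 0.0570. Slc35e4 and Pmp22 had log2 differences of -1.36 and -1.23, both with an adjusted p of 0.0588, and DESeq2 and limma called both.

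**Figure D3:**
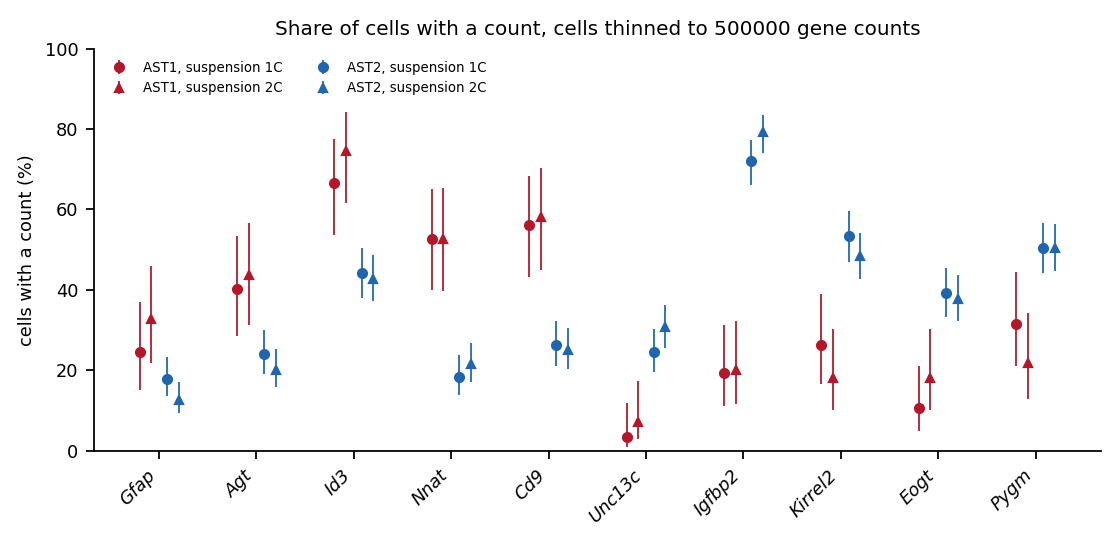
The vertical axis is the percentage of cells with a count after thinning each cell to 500000 gene counts, with 95% Wilson intervals that cover counting error only. Red is AST1, blue is AST2, circles are 1C and triangles 2C. The first 5 genes have higher shares in AST1 of both suspensions, and the last 5 have higher shares in AST2.

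The 250 bases before the RefSeq start (GRCm38.p6) are shown for 1 called gene of each direction. The start of each is the same in RefSeq and in the annotation used here for gene positions. Capitals mark matches to the GC box GGGCGG and to the GC-rich SMAD site GGCGCC, on either strand, and Nnat holds none of the 7 motifs that were searched.
Nnat, chr2:157559828-157560077, plus strand: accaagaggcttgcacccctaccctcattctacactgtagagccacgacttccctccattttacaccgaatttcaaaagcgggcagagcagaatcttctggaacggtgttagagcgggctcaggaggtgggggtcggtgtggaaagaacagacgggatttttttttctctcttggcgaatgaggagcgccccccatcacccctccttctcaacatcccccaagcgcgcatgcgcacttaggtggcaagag
Sat1, chrX:155216450-155216699, minus strand: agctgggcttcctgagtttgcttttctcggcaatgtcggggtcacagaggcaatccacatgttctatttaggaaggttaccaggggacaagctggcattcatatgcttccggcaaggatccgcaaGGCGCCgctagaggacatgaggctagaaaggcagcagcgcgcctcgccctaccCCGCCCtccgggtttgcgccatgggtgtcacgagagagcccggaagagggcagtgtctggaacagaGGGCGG
RefSeq promoters matched 19 of the 25 called genes and 4349 of the genes tested. The GC box was present in 68.4% of the 19 and in 65.9% of the 4349, the CCAAT box in 21.1% and 42.1%, the TATA box TATAAA in 10.5% and 7.56%, and the GC-rich SMAD site in 5.26% and 19.8%. The STAT site TTCNNNGAA was present in 10.5% and 6.83%, and the E-box CACGTG and the AP-1 site TGANTCA were in none of the 19, against 11.2% and 5.01%. These matches describe letters in the windows and are not binding sites.

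The study chose its marker genes with cells as units, setting each subtype against all other astrocytes of cortex and hippocampus. It mapped Gfap, Agt and Unc13c in tissue sections by in situ hybridization. The test here compares 2 cortical subtypes by sums over 2 animals, so that it does not repeat the study's comparison. Gfap is a gene that the study names for AST1. It had 250.9 and 483.3 CPM in AST1 and 125.9 and 89.8 CPM in AST2. The groups did not overlap, a separation that was not counted over all genes tested. The suspensions differed and Gfap did not pass the test. Its log2 difference was 1.70 ± 0.36 (SE), with an adjusted p of 0.149 (edgeR). DESeq2 called Gfap, with an adjusted p of 0.00860, and no other alternative did (adjusted p up to 0.660). A minority of cells held it, 24.6% and 32.7% of thinned AST1 cells and 17.9% and 12.7% of AST2 cells. Vim, which encodes the filament partner vimentin, had log2 ratios of AST1 to AST2 of 1.98 in 1C and 3.86 in 2C and a fitted log2 difference of 2.83 with an adjusted p of 0.141. Of the 8 genes in the list of glia limitans and fibrous astrocytes, 6 were tested, and all 6 had positive values with a median of 1.89. None was called. Members such as Tnc and Vim passed the filter on low genes through AST1, so that the direction of the list is in part fixed by the filter. Among genes held by at least 25% of cells the median was 1.135, over fewer members, since genes such as Tnc were no longer tested. The list shares Vim with that of intermediate filaments, so that these lists are not independent of each other. Tnc, the matrix protein tenascin C, had log2 ratios of 5.29 and 3.15, with a fitted log2 difference of 4.05 and an adjusted p of 0.112. Of its CPM summed over AST2 cells, 1 cell gave 84.7% in 1C and 39.4% in 2C, and 3 and 5 AST2 cells held it. In AST1 the highest cell gave 33.9% and 25.9%. Id1 and Id3, inhibitors of basic helix-loop-helix factors that BMP signals induce, had log2 differences of 2.09 and 1.56 with adjusted p of 0.0676 and 0.0514, and they were called in 3 and 7 alternatives, Vim in 2 and Tnc in 3. Id3 was at 1099.5 and 1338 CPM in AST1 and at 489.3 and 345.4 CPM in AST2. Over the list of Id genes and BMP signalling 9 of 18 genes were tested, with 7 positive and 2 negative values and a median of 0.76, which was 0.28 in suspension 1C alone and 1.03 in 2C alone. Id1 passed the filter on low genes through AST1, so that its sign is in part fixed by the filter, and the median log2 fold change of Id genes and BMP signalling was 0.45 among genes held by at least 25% of cells.

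The markers of meningeal fibroblasts, which lie against the glia limitans, summed to a mean over cells of 30.7 and 25.8 CPM in AST1 and to 59.7 and 58.4 CPM in AST2, with Dcn, Lum and Slc6a13 at 0 in all 4 groups of cells. Ependymal markers summed to means of 23.2 and 21.9 CPM in AST1 and to 19.6 and 15.6 CPM in AST2, with Ccdc153, Tmem212 and Dynlrb2 at 0 in all 4. The part of these cell types in the result was not tested.

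Cells were also counted by how many of these genes they held. Of Gfap, Vim, Tnc and Id1, a set chosen after their values were seen, at least 2 were found in 19 of 57 AST1 cells of 1C (33.3%) and in 15 of 55 of 2C (27.3%). The same was true of 9 of 240 AST2 cells of 1C (3.75%) and 11 of 2C (3.89%). None of the 4 was found in 47.4% and 36.4% of AST1 cells and in 70.8% and 76.0% of AST2 cells. Since the set was chosen for higher levels in AST1, the larger shares in AST1 follow from the choice. Of the AST1 cells with Tnc, 4 of 13 in 1C and 6 of 14 in 2C held Gfap, against 10 of 44 and 12 of 41 of those without Tnc.

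Unc13c is a gene that the study names for AST2, found there with PAGODA and not with the tool used for its other markers. It encodes a Munc13 protein, a family known for priming vesicles for release. Its sums did not separate the groups, with 11.1 and 79.1 CPM in AST1 and 60.8 and 102.7 CPM in AST2, a log2 difference of -1.24 ± 0.66 (SE) and an adjusted p of 0.479. It was called in 1 alternative, limma on mean log values, with adjusted p over the alternatives from 0.00490 to 0.692. By shares of cells the values were further apart, with 3.51% and 7.27% of thinned AST1 cells and 24.6% and 30.7% of AST2 cells. Unc13c passed the filter on low genes through AST2, and the study chose it on these cells. Its direction is thus in part fixed in advance. Of the CPM summed over AST1 cells, 1 cell gave 97.9% in 1C and 1 cell gave 91.5% in 2C. The gene's sum in AST1 was thus mostly the value of 1 cell per suspension. In AST2 the highest cell gave 7.87% and 5.85%.

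Further genes that the study names for these subtypes did not pass the test, whose comparison is narrower than the study's. Some passed under alternatives. Arl6ip1 had a log2 difference of 1.07 with an adjusted p of 0.0764 and was called in 5 alternatives. Slc7a10, the serine and glycine exchanger Asc-1, had -0.61 with an adjusted p of 0.0676 and was called in 3 alternatives, with adjusted p over the alternatives from 0.00580 (limma) to 0.660. Chrdl1, a secreted BMP antagonist that matures synapses, had -0.77 with an adjusted p of 0.124 and was called only among genes held by at least 25% of cells (adjusted p of 0.0403, and up to 0.660 in the others). Gria2, an AMPA receptor subunit, had 690.2 and 407.3 CPM in AST1 and 615.2 and 627.9 CPM in AST2, overlapping groups with an adjusted p of 0.727. Of the genes in the study's full marker tables, 37 of AST1 were tested, with 36 positive values, a median of 0.77 and 5 called, against 0.293% called higher in AST1 over all genes tested. Of those of AST2, 97.6% were tested and 98.4% of these had negative values, with a median of -0.57 and 6 called, against 0.114% called higher in AST2 over all genes tested. These tables were chosen on the same cells, so that their direction is not independent evidence.

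The endfoot and synapse lists held more positive than negative values. The list of the endfoot complex and gap junctions had 12 genes tested, 10 of them positive, with a median of 0.25 and none called. Aqp4, the water channel of endfeet, had 1868 and 2359 CPM in AST1 and 1185 and 1278 CPM in AST2, with a log2 difference of 0.77 and an adjusted p of 0.0570. Mlc1 had 0.69 and an adjusted p of 0.112. The gap junction gene Gjb6 stood on the other side, with 1837 and 1785 CPM in AST1 and 2186 and 2526 CPM in AST2 and an adjusted p of 0.197. Among 13 tested of 18 secreted and adhesive synapse regulators, Sparcl1 and Ntrk2 were called higher in AST1, 8 values were positive and 5 negative, and the median was 0.22 (0.03 to 0.51 over the alternatives), against 2989 of 6144 positive values, 0.293% called higher in AST1 and a median of -0.01 over all genes tested. Sparc, the antagonist of Sparcl1 at synapses, had 286.4 and 211.5 CPM in AST1 and 62.6 and 68.7 CPM in AST2, with an adjusted p of 0.0570, and like Aqp4 was called in 5 alternatives. The highest cell gave 29.6% and 15.9% of the Sparc CPM summed over AST1 cells in 1C and 2C, against 6.15% and 6.40% in AST2.

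Lists of potassium, glutamate, glycogen and glycolysis genes had medians below 0, and over the alternatives the median turned sign for glutamate (-0.53 to 0.09), glycogen (-0.50 to 0.02) and glycolysis (-0.56 to 0.02), whereas that of potassium ran from -1.53 to -0.20. Over all genes tested, 3155 of 6144 were negative and 0.114% were called higher in AST2. Of 6 tested genes of potassium buffering, 5 were negative, with a median of -0.53 and none called. Kcnk1, a leak channel, had a log2 difference of -0.59 with an adjusted p of 0.0874. Kcnj10, the channel Kir4.1, had 84.3 and 149.8 CPM in AST1 and 162.1 and 153.2 CPM in AST2. Of 8 tested genes of glutamate uptake and glutamine supply, Slc38a3 was called higher in AST2 and the median was -0.28. Atp1b2, whose protein was the handle of the sort, had a log2 difference of 0.16 with an adjusted p of 0.364. The transporters Slc1a2 and Slc1a3 had log2 differences of 0.38 and 0.21 and were not called. Glul, the glutamine synthetase, had 1529 and 1167 CPM in AST1 and 1426 and 1478 CPM in AST2, overlapping groups. Glycogen genes had a median of -0.18 over 8 tested, with Pygm called and the brain-type phosphorylase Pygb at 0.42. Glycolysis genes had a median of -0.15 over 15 tested, with none called.

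Sterol synthesis enzymes had 15 negative values of 19 tested, a median of -0.28 (-0.46 to -0.15 over the alternatives) and none called. At an unadjusted p under 0.05 there were 4 on the AST2 side and none on the AST1 side, against 7.54% and 5.75% of the genes tested. In amino acid exchange and glycine cleavage, 12 of 15 genes were tested, the median was -0.13 (-0.26 to 0.31 over the alternatives) and none was called. Phgdh, the first enzyme of serine synthesis, had 0.70 with an adjusted p of 0.0874, opposite in sign to Slc7a10. The 4 tested nuclear long non-coding RNAs were all negative, with a median of -0.85 and none called. For Kcnq1ot1, 1 cell gave 100% of the CPM summed over AST1 cells in 1C and 53.7% in 2C. In AST2 the highest cell gave 11.7% and 9.51%. The values of this list go with the higher share of reads outside exons in AST2 cells. The part of that share in them was not tested. None of the 11 reactive astrocyte genes in the list reached the filter on low genes.

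**Figure D4:**
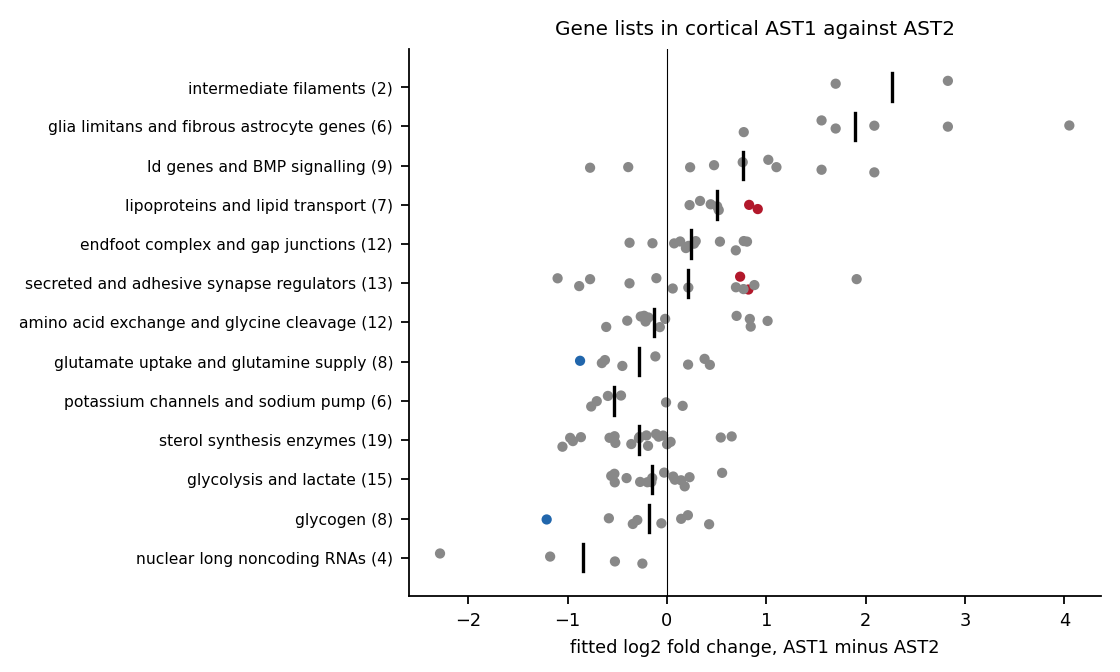
Each point is a tested gene of a list, with its fitted log2 fold change (AST1 minus AST2) on the horizontal axis and the number of tested genes behind each list's name. Black bars are medians, and red and blue points are genes called higher in AST1 and in AST2. The tested intermediate filament and glia limitans genes lie to the right of 0, a direction that the filter on low genes in part fixes, and most sterol synthesis and potassium genes lie to the left.

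AST3, another large cortical subtype (28.5% and 29% of the cells of the suspensions), had levels between those of AST1 and AST2 in both suspensions for all 18 genes called higher in AST1 and for 6 of the 7 called higher in AST2. That order held for 17.6% of the genes tested. The called genes were chosen for a repeated gap between AST1 and AST2 in these sums. AST3 falls within such a gap more easily than within a small or changing gap. The larger share among the called genes thus follows in part from the choice, and 17.6% is not a matched reference. AST3 was part of the fit, and the subtypes were clustered on these counts, so that the order is a description. Over the 16 plates, genes called higher in AST1 had a higher mean in AST1 on 12 to 16 plates, with a median of 16, and genes called higher in AST2 had a higher mean in AST2 on 15 to 16. Over all genes tested, the median was 6 plates with the higher mean in AST1 and 10 with the higher mean in AST2. A plate held 3 to 13 AST1 cells and 15 to 44 AST2 cells. The plate means use the same cells whose sums chose the called genes, so that the agreement over plates follows largely from the choice. Plates of a suspension share the animal and are not replicates.

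Hippocampal cells with the same labels were also compared, with 545 AST1 cells in all and 10 and 22 AST2 cells in the suspensions 1H and 2H. Each of these suspensions was made from 4 pooled animals. The study clustered astrocytes of both regions together. A shared direction thus follows in part from the labels and is not independent evidence. Of the 18 genes higher in cortical AST1, 17 had positive values in hippocampus, against 64.3% of the genes tested, with a median of 0.64. Of the 7 higher in cortical AST2, 5 were negative, with a median of -0.77. For the hippocampal contrast in a joint fit of both regions, edgeR called 0 genes, with 564 at an unadjusted p under 0.05 (9.18%). That fit shares its estimate of spread with the cortical sums, and its genes were filtered on cortical cells. The difference between the regions was also called in 0 genes. At an unadjusted p under 0.05 there were 4.61% of the genes, 8 of them among the 18 and 2 among the 7. The 18 and the 7 were chosen for their differences in the same cortical sums. Larger differences between regions among them thus follow in part from the choice. No other tool was run on the hippocampal contrast.

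Cst3 and Apoe had the same direction, with log2 differences of 0.88 and 0.69 in hippocampus. Cst3 had 20921 and 21295 CPM in hippocampal AST1 and 12367 and 10581 CPM in AST2. Igfbp2 had a log2 difference of -2.23 there against -2.22 in cortex. Pla2g7, an enzyme that inactivates platelet-activating factor, had overlapping groups there, with 4500.2 and 4458 CPM in hippocampal AST1 and 4927 and 4258 CPM in AST2, and its difference between regions was not called (edgeR, adjusted p of 0.740). Ntrk2 had 2485 and 2649.9 CPM in hippocampal AST1 against 2449 and 2280.2 CPM in AST2, a log2 difference of 0.12 against 0.74 in cortex. Eogt, called higher in cortical AST2, had overlapping groups there, with 43.3 and 28.9 CPM in AST1 and 19.9 and 38.5 CPM in AST2.

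**Figure D5:**
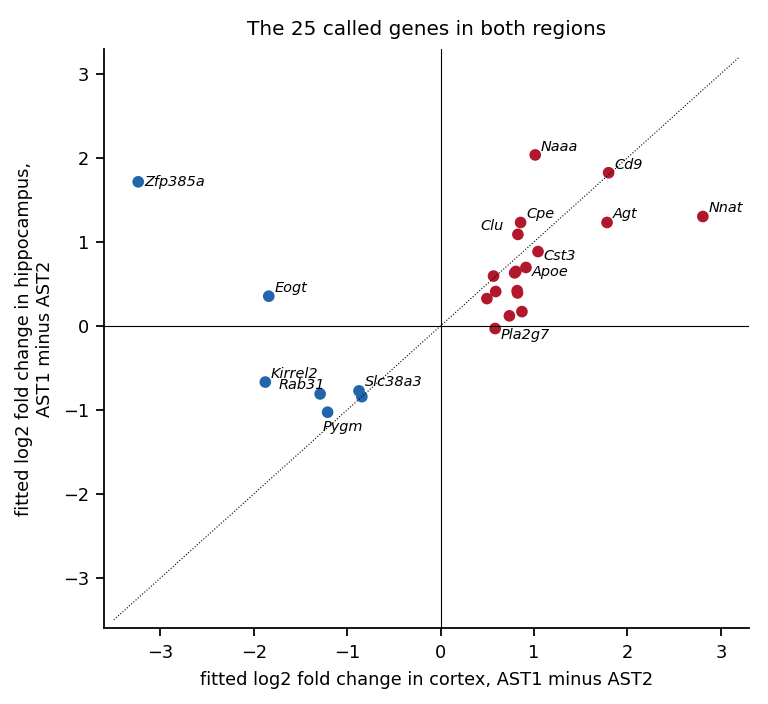
Each point is 1 of the 25 called genes, with the fitted log2 fold change of AST1 minus AST2 in cortex on the horizontal axis and in hippocampus on the vertical axis. Red genes were called higher in cortical AST1 and blue genes in cortical AST2, and the dotted line marks equal values. Of the red points 17 lie above 0, and of the blue points Eogt and Zfp385a do.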

How the data were processed

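Read counts per gene were deposited as 1 file per cell. Per the study's methods, the authors mapped paired reads with STAR 2.5.2b to GRCm38.p5 with spike-in sequences added, and HTSeq counted the reads with a unique position by gene. The counts were not normalised. Gene positions given here come from a later GENCODE release than the one the authors mapped to. Smart-seq2 does not mark the strand, so that reads of overlapping genes on opposite strands cannot be told apart. After 22 cycles of amplification without molecular identifiers, counts are not counts of molecules, and intervals cover counting error only. The authors named the subtypes by clustering these counts, and the cell list was used as given (AST1 57 cells of 1C and 55 of 2C, AST2 240 and 283, AST3 154 and 151). It lacks 33 cells of plate 95 of suspension 1C, which were not used. Each well held 1 sorted cell, and no doublet caller was run.

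Raw counts of genes were summed per subtype and suspension. Rows of reads outside genes stayed out of library sizes. Genes with a count in at least 10% of cells, on average over the 4 AST1 and AST2 sums, were tested with edgeR 4.0.16 (TMM scaling, robust quasi-likelihood test) on 6 sums (AST1, AST2 and AST3 of 1C and 2C) with suspension as a block, since a suspension is 1 animal. The fit had 2 residual degrees of freedom, a median of 4 prior degrees of freedom borrowed across genes, and a common biological coefficient of variation of 0.323. Deviations of same-suspension sums from their group means correlated at 0.021 (AST1 with AST2), 0.028 (AST1 with AST3) and 0.039 (AST2 with AST3) over 6144 genes. CPM of sums were scaled by TMM. The regional test used 8 sums (AST1 and AST2 of 4 suspensions). Named genes were the 10 with the largest fold in each direction among called genes that over 25% of cells in the higher subtype held, filled up by the smallest p where fewer were called, with the genes that the study names and members of function lists. The cells, the comparison and the lists were chosen with earlier results of these data known. Scripts were tested on simulated data. Other scalings, filters, tools and left-out cells were tried as alternatives, using DESeq2 1.42.0 and limma 3.58.1.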

Additional observations from a re-analysis of the deposited data

How the results depend on the processing

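The 25 called genes kept their direction in every alternative that gave them a value. Their number did not hold. Beside 18 higher in AST1 and 7 higher in AST2 (0.293% and 0.114% of the genes tested), the counts were 28 and 18 (0.456% and 0.293%) with the AST1 and AST2 sums alone, 43 and 91 (0.700% and 1.48%) with limma on mean log values, and 49 and 45 (2.07% and 1.90%) among the 2367 genes with a count in at least 25% of cells. With DESeq2 the shares were 1.63% and 2.23%, and 11 of the 25 genes were among its calls. They were 0 and 0 with edgeR's filterByExpr and with no filter, where the lowest adjusted p were 0.206 and 0.273 and many more low genes were tested. At an adjusted p under 0.01 they were 2 (0.0326%) and 0. Without the suspension as a block, which ignores the pairing by animal, 23 and 12 genes were called (0.374% and 0.195%), 20 of them shared with the 25. Thinning gave 24 and 11 (0.391% and 0.179%), and leaving out plate 95 gave 20 and 12 (0.326% and 0.195%). The scaling of DESeq2 gave 19 and 7. Leaving out cells with under 4% of reads outside exons, chosen after seeing the data, gave 16 and 7. The share of calls higher in AST1 was 72% in the reported fit, 42.2% with DESeq2 and 32.1% with limma. With means in place of medians, the difference between AST1 and AST2 cells, averaged over the suspensions, was -12170 in place of 51060 gene counts, -2.36 in place of -3.01 percentage points of reads outside exons, 0.0194 in place of -0.212 points of mitochondrial and 0.0337 in place of 0.0282 points of ribosomal protein counts. With 1 suspension left out, no test was possible, since 1 sum per subtype remains, and the log2 ratio of the other suspension was taken as a value. The difference in genes per cell then ran from -271 to -66, and that in the log2 ratio of gene to ERCC counts from -0.159 to -0.000761. The cause of the differences between tools was not tested.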

Other observations

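Several signalling and housekeeping lists that the comparison did not call are given here as values. Of 10 tested genes of FGF receptors and MAPK feedback, none was called and the median log2 difference was 0.16 (-0.16 to 0.20 over the alternatives). On the AST2 side 3 feedback inhibitors were at an unadjusted p under 0.05, against 7.54% of the genes tested. Dusp6, a phosphatase that switches off ERK, had a log2 difference of -1.02 with an adjusted p of 0.197 (edgeR). Spred1 had 16.96 and 36.3 CPM in AST1 and 61.1 and 75.1 CPM in AST2, with an adjusted p of 0.268, and Spry2 a log2 difference of -0.38 with an adjusted p of 0.296. The Wnt list had values on both sides and a median of -0.06 (-0.12 to 0.008 over the alternatives). Dkk3, a secreted protein of the Dickkopf family, had 687 and 778.1 CPM in AST1 and 378.5 and 420.4 CPM in AST2, with an adjusted p of 0.0874. Sfrp1, a secreted Wnt inhibitor, had 122.3 and 32.2 CPM in AST1 and 13.5 and 13.6 CPM in AST2, with suspensions that differed from each other, whereas Wls and Znrf3 stood at -0.59 and -0.62. Of 14 tested circadian clock genes 10 were negative, with a median of -0.33, and Cry2, a repressor of the clock, had 145.2 and 158.1 CPM in AST1 and 251.5 and 287.2 CPM in AST2, with an adjusted p of 0.155. The 6 tested innate immune genes had fitted values of -0.81 to -0.04, 2 of them on the AST2 side in both suspensions and none called, against 3155 negative values of 6144 over all genes tested, and Tlr3, the sensor of double-stranded RNA, had 169.7 and 262.1 CPM in AST1 and 379.1 and 369.2 CPM in AST2, with an adjusted p of 0.233.

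The large housekeeping lists are given beside all genes tested, whose median was -0.01. Ribosomal protein genes had 53 positive values of 77 tested and a median of 0.17, and nuclear respiratory chain genes 36 of 74 and a median of 0.00. The 13 genes of the mitochondrial genome had a median of 0.06 (-0.01 to 0.13 over the alternatives). None of these genes was called. At an unadjusted p under 0.05, 1, 0 and 0 of them stood on the AST1 side, and 1, 0 and 0 on the AST2 side. In the glutathione list the median was 0.15 over 12 tested genes (-0.16 to 0.23 over the alternatives), and Mgst1, a microsomal glutathione transferase, had a log2 difference of 1.22 with an adjusted p of 0.198.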
